A study of Mus musculus with 10 samples.

Results

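The cytosolic ribosomal protein genes were compared between CD8+ T cells kept with 4T1 tumour cells and CD8+ T cells kept with them and treated with sodium acetate (NaAc). They were taken by name: every protein-coding gene whose symbol starts with Rpl or Rps and goes on with a number, with Rplp and a number, or is Rpsa, without the ribosomal protein S6 kinases and without pseudogene names. The rule took 87 of the 57825 genes listed. Of these, 43 encode proteins of the large subunit, 31 of the small subunit and 3 of the stalk, so that 77 were core subunits. A further 7 were paralogs of core subunits, and 3 were not subunits or were a retrocopy (Rps19bp1, which binds the Rps19 protein, and the retrogenes Rps23rg1 and Rps27rt). Fau, which encodes a ribosomal protein joined to a ubiquitin-like protein, and Rack1, a scaffold protein on the small subunit, were outside the name rule.

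In both groups CD8+ T cells came from the spleens of female Balb/c mice, were activated for 12 h with IL-2 and anti-CD28 on anti-CD3 plates, and were co-cultured for 48 h with 4T1, a Balb/c mammary carcinoma line. CD8+4T1 had 5 samples without acetate and CD8+4T1+NaAc had 5 samples treated with 5 mM NaAc; the methods give the T cells NaAc for 24 h ahead of the co-culture. RNA of the purified T cells was sequenced and counted per gene as FPKM, the fragments of a gene scaled to its length and to the number of fragments of the sample. Nothing says whether the 5 samples of a group came from separate mice or cultures, so the p-values below measure only the spread between these samples. CD8+4T1+NaAc replicate 1 stood apart, with 20233 genes of the table above 0 against 22291 to 25088 in the other samples, and values without it are given for each named gene whose change is printed and that it turned or moved by over 1.5 times.

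Ribosomal proteins and ribosomal RNA form the small subunit, which reads the messenger RNA, and the large subunit, which joins amino acids. The proteins are needed in matched amounts, and many of their messenger RNAs start with a run of pyrimidines (a 5′ terminal oligopyrimidine, or TOP, sequence) through which mTOR and LARP1 control their translation. Activated T cells are known to make many ribosomes as they grow and divide.

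Ribosomal protein genes were lower with acetate across both subunits. Of the 87 genes, 83 had a mean of at least 0.5 FPKM and were tested by limma on log2(FPKM + 0.1), and 52 of them fell at a Benjamini-Hochberg adjusted p under 0.05, which is 62.7% of those tested against 19.0% of all 15710 genes tested. None rose, where 17.6% of all genes tested did, and none had an unadjusted p under 0.05 for a rise, either by limma (0) or by limma-voom on the fragment counts recovered from FPKM (0). The log2 fold change, with acetate minus without, was negative for 74 genes and positive for 9, with a median of -0.43 beside -0.02 over all genes tested. For 40 genes, or 48.2%, every CD8+4T1+NaAc sample was below every CD8+4T1 sample, where this held for 13.3% of all genes tested. For 0 genes was it the other way round, against 13.1%. Of 290 genes over 100 FPKM outside the name rule, pseudogenes left out, 41.4% had every acetate sample lower. Of the 69 ribosomal protein genes over 100 FPKM, 52.2% did. In bulk samples, fewer cells of a type and less RNA per cell cannot be told apart.

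The small subunit genes had a median log2 fold change of -0.51, with 21 of 31 lower (67.7%), and the large subunit genes had -0.33, with 26 of 43 lower (60.5%). Both shares were near the 62.7% of all ribosomal protein genes tested, and the difference between subunits was not tested. Of the stalk genes 2 of 3 fell. The paralogs had 2 of 4 tested lower, and among the other genes Rps19bp1 fell, from 35.6 ± 2.23 FPKM in CD8+4T1 to 23.8 ± 2.05 FPKM in CD8+4T1+NaAc (log2 change -0.58 ± 0.07 SE, adjusted p = 0.000107 by limma), whereas Rps27rt did not pass the test (log2 change -0.09, adjusted p = 0.794 by limma, and -0.20 without acetate replicate 1).

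**Figure D1:**
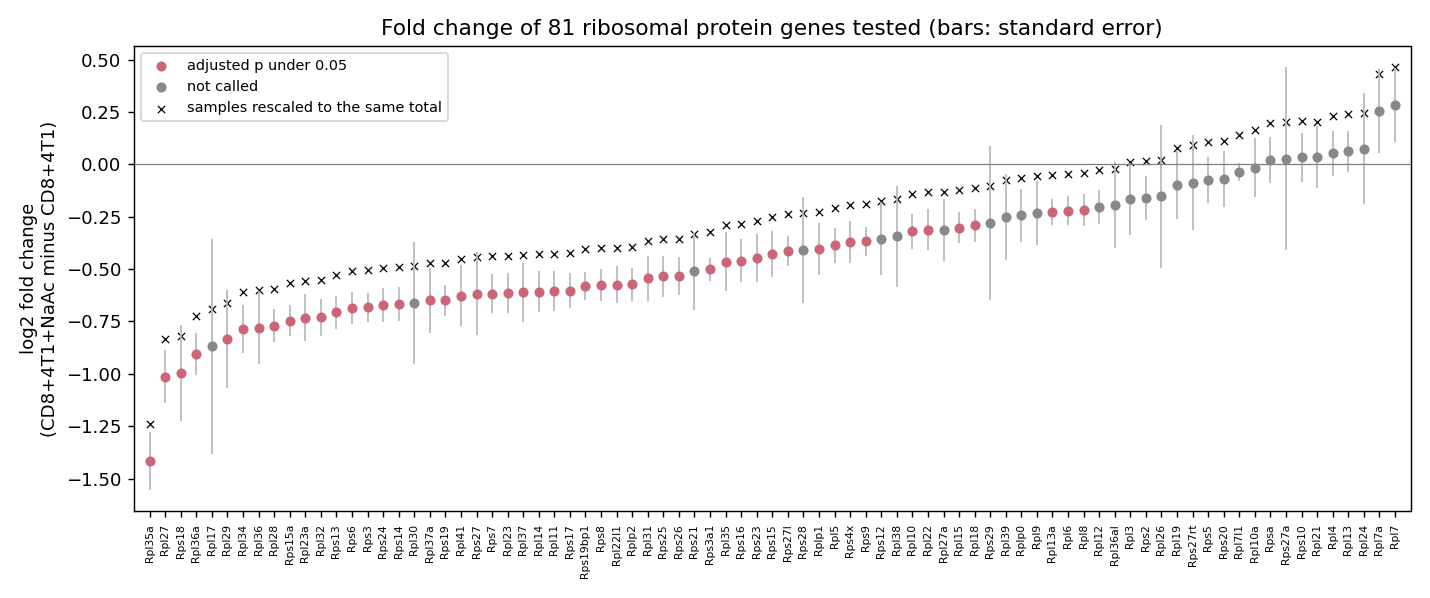
Log2 fold change (CD8+4T1+NaAc minus CD8+4T1) of 81 of the 83 ribosomal protein genes tested, in order, with bars for the standard error; red points are the 50 of these genes lower at a limma adjusted p under 0.05 and crosses are the values after each sample is rescaled to the same total FPKM. The points run from -1.42 for Rpl35a to 0.28 for Rpl7, and every cross lies above its point.

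The size of the fall depended on how samples were put on a common scale. All genes listed summed to more FPKM in CD8+4T1 than in CD8+4T1+NaAc, and the fragments in listed genes made up 95.5% to 97.9% of the fragments that FPKM was scaled to in CD8+4T1 but 89.8% to 92.1% in CD8+4T1+NaAc. When each sample was rescaled to the same total, the median of all genes went to 0.16 and that of the ribosomal protein genes to -0.25, with 39 lower and 3 higher (Rpl7, Rpl7l1 and Rpl13) beside 8.80% of all genes lower and 31.2% higher. When samples were rescaled to their T cell marker genes, 37 were lower and 2 (Rpl7 and Rpl13) higher, with a median of -0.24 beside 7.50% of all genes lower and 30.0% higher. The 13 genes that lost the call with the same total were Rpl6, Rpl8, Rpl10, Rpl13a, Rpl15, Rpl18, Rpl22, Rpl35, Rplp1, Rps4x, Rps15, Rps23 and Rps27, and among those that lost it with T cell marker scaling was Rpl29. A set of 37 genes was lower in all 24 fits that treat each gene by itself, these rescalings and every left-out sample included.

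Markers of other cells moved between the groups. In the fit with all samples 19.0% of all genes tested were lower and 17.6% higher, to be set beside the marker counts here. The 10 T cell markers were present in all samples, with a summed level of 765 to 863 FPKM in CD8+4T1 and 671 to 818 FPKM in CD8+4T1+NaAc, and 6 of them were lower (log2 change -0.54, adjusted p = 0.00405 by limma for Cd3d) and 0 higher, whereas Cd8a was not called (log2 change -0.04, adjusted p = 0.559 by limma, and -0.02 without acetate replicate 1). When acetate replicate 1 was left out, 2 T cell markers were called higher, Cd8b1 (0.27, limma adjusted p = 0.00314) and Trac (0.39, limma adjusted p = 0.000997), as was the B cell marker Cd79b. In that fit 3408 of all 15710 genes tested were higher. The 20 markers of 4T1 and epithelial cells summed to 79.6 to 97.1 FPKM in CD8+4T1 and 217 to 415 FPKM in CD8+4T1+NaAc. Of the 12 tested, 9 were higher, such as Krt8 (from 3.42 ± 1.69 FPKM in CD8+4T1 to 34.2 ± 13.1 FPKM in CD8+4T1+NaAc), and Krt5 was listed at 0 in all acetate samples. Their part in the ribosomal protein results was not tested. B cell markers summed to 4.29 to 5.27 and 5.19 to 6.62 FPKM and myeloid markers to 25.2 to 34.5 and 25.9 to 30.0 FPKM. Most of the myeloid sum was Cd68, at 25.8 ± 2.97 FPKM in CD8+4T1 and 22.8 ± 1.73 FPKM in CD8+4T1+NaAc, and 1 of the 3 myeloid markers tested was higher, Lyz2, which was at most 1.66 FPKM (log2 change 0.96, adjusted p = 0.0328 by limma). NK and erythroid markers had no gene that passed the filter on low values, and Cd4 went from 0.541 ± 0.169 FPKM in CD8+4T1 to 1.60 ± 0.187 FPKM in CD8+4T1+NaAc.

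As a share of all FPKM, the ribosomal protein genes held 12.9%, 14.8%, 15.3%, 15.3% and 14.2% in CD8+4T1 replicates 1 to 5 (mean 14.5% ± 0.979, SD, n = 5). In CD8+4T1+NaAc they held 10.4%, 12.9%, 12.2%, 12.1% and 12.5% (12.01% ± 0.943, n = 5). Replicate 1 was the lowest in both groups, and the groups met without crossing, the lowest CD8+4T1 sample lying just above the highest CD8+4T1+NaAc sample. Counted in fragments, which weights long transcripts more, the share was 7.94% ± 0.608 and 6.33% ± 0.524. Genes named Rpl held 8.44% ± 0.599 and 7.07% ± 0.673 of the summed FPKM, and genes named Rps held 6.08% ± 0.382 and 4.93% ± 0.274.

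Replicate 1 of each group stood apart from the other samples of its group. In CD8+4T1 replicate 1, 76 of the 83 genes were below the CD8+4T1 mean, against 29, 8, 14 and 50 in replicates 2 to 5; in CD8+4T1+NaAc the counts were 77, 67, 73, 73 and 68. CD8+4T1+NaAc replicate 1 was the lowest of all 10 samples for 48 of the 83 genes. Without it, 51 genes were lower, 50 of them also lower with it, and 2 (Rpl7 and Rpl4) were higher. Of all 15710 genes tested, 3557 were lower and 3408 higher in that fit. The share of summed FPKM without acetate replicate 1 was 12.1% to 12.9%.

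**Figure D2:**
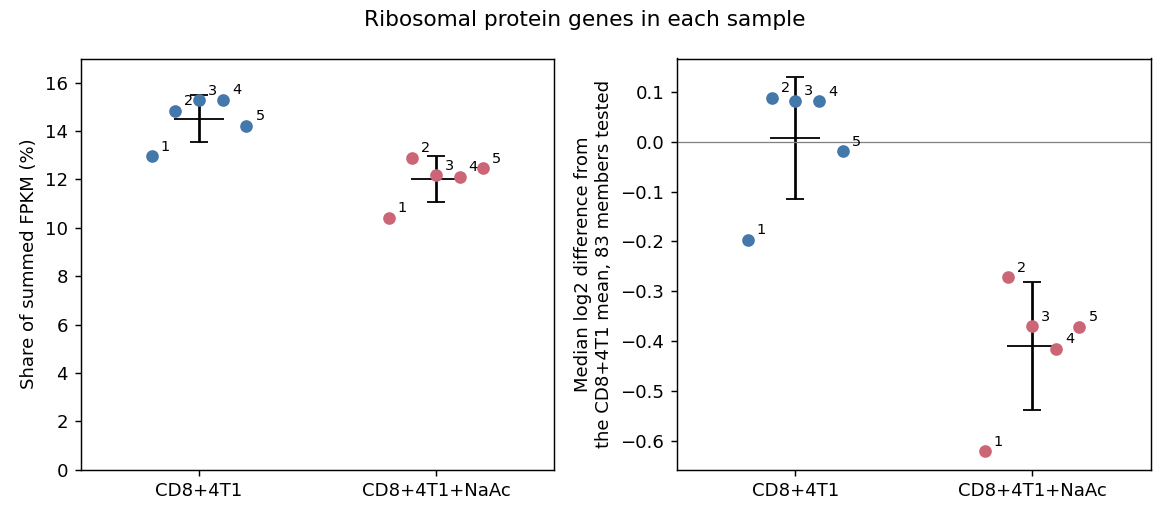
Left, the share of each sample's summed FPKM held by the 87 ribosomal protein genes, in percent; right, the median over the 83 genes tested of the log2 difference from the CD8+4T1 mean. Points are samples with their replicate number and bars are the mean ± SD (n = 5 per group); the shares run from 12.9% to 15.3% in CD8+4T1 and from 10.4% to 12.9% in CD8+4T1+NaAc.

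Among the genes with the largest falls were Rpl35a, Rpl27, Rps18 and Rpl36a. Rpl27 encodes a large subunit protein and is listed at chr11:101333124-101336355 (ENSMUSG00000063316), in the deposited table's own coordinates, whose build is not given in the sources used here. Its levels in replicates 1 to 5 were 691, 831, 806, 813 and 779 FPKM in CD8+4T1 and 548, 385, 349, 339.7 and 350.2 FPKM in CD8+4T1+NaAc. Every sample with acetate was lower, and replicate 1 was the highest of the acetate samples rather than the lowest (log2 change -1.01 ± 0.13 SE, adjusted p = 0.000164 by limma).

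Rpl36a, a large subunit gene on the X chromosome (chrX:133486403-133488811), had 402, 399, 548, 539 and 498 FPKM in CD8+4T1 and 258, 269, 259, 235 and 243 FPKM in CD8+4T1+NaAc. Its acetate samples lay close together, all below the CD8+4T1 samples (log2 change -0.90 ± 0.10 SE, adjusted p = 8.59e-05 by limma).

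Rpl35a and Rps18 were listed at low levels, and much of their family was counted in pseudogenes: 59.3% and 45.3% of the fragments of the gene and its pseudogenes, as sample medians, lay there. Rpl35a, a large subunit protein gene that is mutated in some patients with Diamond-Blackfan anaemia, had 22.5, 42.1, 29.8, 33.8 and 29.2 FPKM without acetate and 11.1, 11.6, 10.5, 11.4 and 13.0 FPKM with it. All its acetate samples were lower (log2 change -1.42 ± 0.14 SE, adjusted p = 4.68e-05 by limma). Rps18, at the head of the small subunit, had 40.0, 118, 63.9, 63.6 and 54.1 FPKM and 31.9, 33.8, 32.8, 28.5 and 32.7 FPKM. CD8+4T1 replicate 2 was far above the others, and the groups did not overlap (log2 change -0.99 ± 0.23 SE, adjusted p = 0.00655 by limma). With the pseudogenes added to each gene, Rpl35a fell by 1.16 and Rps18 by 1.27 on the log2 scale (limma adjusted p = 2.15e-05 and 0.00631).

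To show what lies at the start of these genes, windows of 30 bases around the longest pyrimidine run near the start site are printed for genes over 100 FPKM with a RefSeq promoter in the table used: the 4 called genes with the largest falls (Rpl27, Rpl36a, Rpl34 and Rpl28) and the 4 with the highest fold changes (Rpsa, Rpl4, Rpl13 and Rpl7a). They are RefSeq sequences of build GRCm38.p6, 5′ to 3′ on the gene's strand, with the run in capitals.

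Rpl27 (chr11:101442225-101442254, plus strand): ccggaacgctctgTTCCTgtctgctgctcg
Rpl36a (chrX:134585650-134585679, plus strand): caccgcctataaaCTTCCgttgcggctcta
Rpl34 (chr3:130730330-130730359, minus strand): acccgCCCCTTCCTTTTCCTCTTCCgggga
Rpl28 (chr7:4792952-4792981, plus strand): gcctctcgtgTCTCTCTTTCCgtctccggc
Rpsa (chr9:120127759-120127788, plus strand): tttaaggacgtcaTTTCCggccgcccgtcc
Rpl4 (chr9:64173361-64173390, plus strand): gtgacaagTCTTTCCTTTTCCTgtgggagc
Rpl13 (chr8:123102324-123102353, plus strand): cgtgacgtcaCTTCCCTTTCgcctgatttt
Rpl7a (chr2:26910788-26910817, plus strand): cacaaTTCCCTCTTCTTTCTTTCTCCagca

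The run was 5 bases in Rpl27 and Rpl36a, 20 in Rpl34 and 11 in Rpl28, and it was 5 in Rpsa, 14 in Rpl4, 10 in Rpl13 and 21 in Rpl7a. Long and short runs thus stood in both sets. Rpl34 had 2 promoters listed, and the one printed was picked for the longest run. Promoters were listed for 67 of the 87 genes, as 79 sequences of 300 bases. An unbroken run of at least 8 letters C or T within 25 bases either side of the start, read on the gene's strand, was in 44.3% of these and in 19.7% of all 32851 promoters of the table. Among promoters of genes that fell it was in 46.9%, and among those tested and not called in 40%. The letters CCGGAAG, on either strand and anywhere in the 300 bases, the core bound by ETS factors, were in 34.2% of the ribosomal protein promoters and 8.86% of all. The letters AAGATGGC, on either strand, the core bound by YY1, were in 10.1% and 2.75%. Other motifs were not searched, a match is a description of letters, and overlaps between these motifs were not removed.

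Rpl34 and Rpl28, whose windows are printed, are large subunit genes. Rpl34 had 281, 443, 440.4, 408 and 372 FPKM in CD8+4T1 and 217, 229, 234, 208 and 227 FPKM in CD8+4T1+NaAc, and Rpl28 had 932, 1179, 1129.7, 1233 and 1044 FPKM and 675, 670.4, 628, 614 and 634 FPKM. In both, every acetate sample was lower, and the acetate samples lay closer together than the others (Rpl34 log2 change -0.78, adjusted p = 0.000425 by limma; Rpl28 log2 change -0.77, adjusted p = 5.45e-05 by limma).

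The most abundant genes were lower too. FPKM is set per length, so levels are set side by side here as listed, although reads divided with pseudogenes make those of some genes uncertain. By mean level the first 8 were Rplp1, Rpl36, Rpl41, Rps3a1, Rps15, Rpl8, Rps6 and Rps4x, and each of them fell, but Rplp1, Rps15, Rpl8 and Rps4x lost the call with samples set to the same total and with T cell marker scaling. Rplp1, one of the acidic proteins of the stalk that recruits elongation factors, had 2639.6, 3807, 3638, 3488 and 3048 FPKM without and 1965, 2892, 2569.8, 2505 and 2619 FPKM with acetate. The groups overlapped, since CD8+4T1 replicate 1 was below acetate replicate 2, and the call was lost without CD8+4T1 replicate 2, 3 or 4 or acetate replicate 4 (log2 change -0.40 ± 0.12 SE, adjusted p = 0.0262 by limma, adjusted p = 0.0504 to 0.0639 without them). With the same total its log2 change was -0.23 and with T cell marker scaling -0.22 (limma adjusted p = 0.117 and 0.133). Rpl36 went from 1987 ± 393 FPKM in CD8+4T1 to 1159 ± 222 FPKM in CD8+4T1+NaAc (log2 change -0.78, adjusted p = 0.005 by limma). Rpl41, the smallest protein of the ribosome, went from 1804 ± 301 FPKM in CD8+4T1 to 1166 ± 181 FPKM in CD8+4T1+NaAc (log2 change -0.63, adjusted p = 0.00629 by limma).

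Rps3a1, a small subunit protein at the exit of the messenger RNA channel, showed one of the tightest separations. Its levels in replicates 1 to 5 were 1541, 1733, 1752, 1730.3 and 1657 FPKM in CD8+4T1 and 1194, 1239, 1171, 1132 and 1205 FPKM in CD8+4T1+NaAc. All acetate samples were below all CD8+4T1 samples by more than the spread of either group (log2 change -0.50 ± 0.06 SE, adjusted p = 8.82e-05 by limma). Rps15 had 1592 ± 234 FPKM in CD8+4T1 and 1178 ± 123 FPKM in CD8+4T1+NaAc (log2 change -0.43, adjusted p = 0.0111 by limma) and Rps4x, whose gene lies on the X chromosome, had 1325 ± 92.6 FPKM in CD8+4T1 and 1032 ± 142 FPKM in CD8+4T1+NaAc (log2 change -0.37, adjusted p = 0.0149 by limma). With the same total and with T cell marker scaling Rps15 was at -0.25 and -0.24 (limma adjusted p = 0.0557 and 0.0961) and Rps4x at -0.19 and -0.18 (limma adjusted p = 0.123 and 0.115). Rpl8, a large subunit protein near the catalytic centre, was the least firm of these calls, at 1158, 1422, 1345, 1417 and 1299 FPKM and 1013, 1262, 1143, 1119 and 1167 FPKM. Its groups overlapped (log2 change -0.22 ± 0.08 SE, adjusted p = 0.0467 by limma), and the call was lost in 13 of 24 alternative fits, among them those without CD8+4T1 replicate 2, 3, 4 or 5 or acetate replicate 1, 3, 4 or 5 (adjusted p 0.0611 to 0.104), and those with the same total (-0.04, limma adjusted p = 0.633) and with T cell marker scaling (-0.03, limma adjusted p = 0.761).

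**Figure D3:**
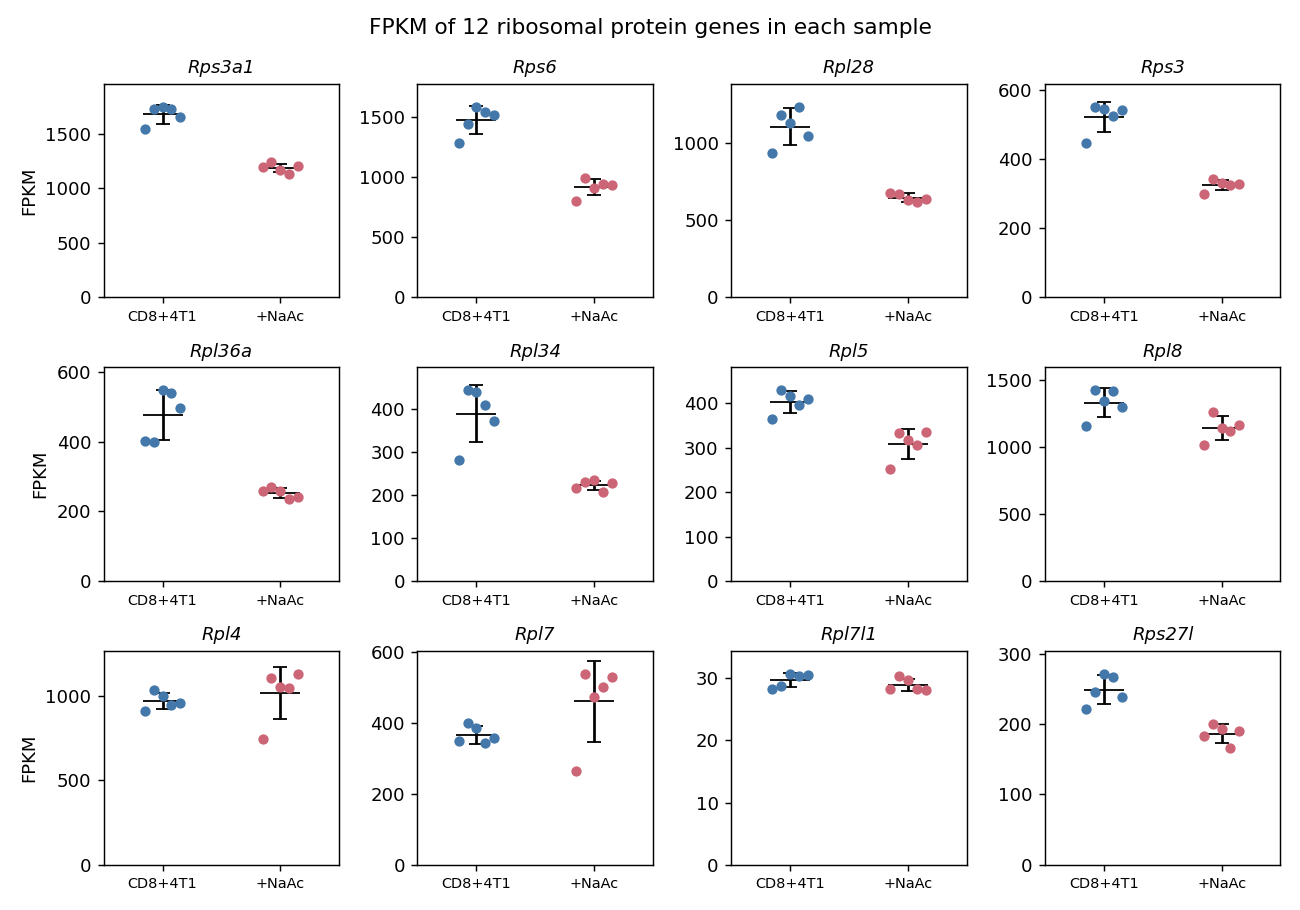
FPKM of 12 ribosomal protein genes in each sample, by group (CD8+4T1 and, as +NaAc, CD8+4T1+NaAc), on axes that start at 0, with points for samples in order of replicate and bars for the mean ± SD (n = 5 per group). Rps3a1, Rps6, Rpl28, Rps3, Rpl36a, Rpl34, Rpl5 and Rps27l show separate groups, whereas Rpl8, Rpl4, Rpl7 and Rpl7l1 overlap.

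Of 10 genes with roles of their own outside protein synthesis or in disease, 7 fell, Rpl41 among them, beside 62.7% of all ribosomal protein genes tested and 19.0% of all genes. Rps6, the substrate of the S6 kinases downstream of mTOR, had 1287, 1448, 1590.4, 1547 and 1523 FPKM in CD8+4T1 and 806, 996, 913, 940.2 and 937 FPKM in CD8+4T1+NaAc. The groups were far apart and replicate 1 was the lowest in each (log2 change -0.69 ± 0.08 SE, adjusted p = 9.01e-05 by limma). Rps3, which also acts in DNA repair and with NF-kappaB, had 446, 552, 546, 526 and 541 FPKM and 299, 342, 329, 325 and 329 FPKM. Its pseudogenes held 0% of its family's fragments as a sample median, and the groups did not overlap (log2 change -0.68 ± 0.07 SE, adjusted p = 5.33e-05 by limma).

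Rpl5 and Rpl11 join 5S ribosomal RNA in a particle that can bind Mdm2 and so stabilise p53. Rpl5 had 365, 429, 415, 395 and 409 FPKM and 253, 333, 317, 306 and 336 FPKM, and Rpl11 had 339.8, 457, 441, 455 and 421 FPKM and 241, 298, 288, 261 and 301 FPKM. Both fell with no overlap (Rpl5 log2 change -0.39, adjusted p = 0.00409 by limma; Rpl11 log2 change -0.60, adjusted p = 0.000678 by limma). Rps19, the small subunit gene mutated most often in Diamond-Blackfan anaemia, went from 313 ± 19.4 FPKM in CD8+4T1 to 200.0 ± 19.5 FPKM in CD8+4T1+NaAc (log2 change -0.65, adjusted p = 0.000101 by limma). Rpl13a, which can leave the ribosome to repress inflammatory messenger RNAs, had 35.0 ± 1.79 FPKM in CD8+4T1 and 30.0 ± 2.43 FPKM in CD8+4T1+NaAc (log2 change -0.23, adjusted p = 0.0155 by limma), and its value was -0.05 once samples were set to the same total.

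The other 3 of these genes did not pass the test. Rpl38, linked to translation of Hox messenger RNAs, had 474 ± 156 FPKM in CD8+4T1 and 362 ± 68.7 FPKM in CD8+4T1+NaAc (log2 change -0.34, adjusted p = 0.299 by limma). Its value was -0.21 without acetate replicate 1 and from -0.54 (without CD8+4T1 replicate 2) to -0.20 (without CD8+4T1 replicate 4) over all samples left out in turn. Rps27a, a fusion of ubiquitin and a small subunit protein, had 82.7, 499, 355, 417 and 398 FPKM and 357, 259, 364, 221 and 358 FPKM. CD8+4T1 replicate 1 was the lowest of all 10 samples and the groups overlapped (log2 change 0.03 ± 0.44 SE, adjusted p = 0.969 by limma). Its value rested on that sample, and was -0.44 without it and -0.04 to 0.21 with another sample left out, acetate replicate 1 included (-0.03). Rpsa, also known as a laminin receptor, had 614, 723, 674, 702 and 723 FPKM and 522, 770.4, 702, 748 and 774 FPKM, with acetate replicate 1 the lowest of all 10 (log2 change 0.02, adjusted p = 0.899 by limma, and 0.12 without it).

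The stalk genes differed in level. Rplp0, the scaffold of the stalk, had 980.4, 971, 1056, 1099 and 1110.1 FPKM and 626, 1049, 870.2, 997 and 927 FPKM, with overlap (log2 change -0.24 ± 0.13 SE, adjusted p = 0.157 by limma). Without acetate replicate 1 its value was -0.12, and 49.3% of its family's fragments were in pseudogenes. Rplp2, the partner of Rplp1, had 434, 519, 535, 558 and 541 FPKM and 327, 379, 371, 322 and 336 FPKM, with no overlap (log2 change -0.57 ± 0.08 SE, adjusted p = 0.000313 by limma).

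Of the 7 paralogs, Rpl22l1 and Rps27l fell beside their parents Rpl22 and Rps27. Rpl22l1 can take the place of Rpl22, whose protein is needed for T cell development. It had 56.1, 64.8, 63.5, 66.3 and 53.6 FPKM and 47.0, 37.5, 44.7, 36.9 and 38.2 FPKM, with no overlap (log2 change -0.58 ± 0.09 SE, adjusted p = 0.000541 by limma). Rpl22 had 106, 124, 129, 118 and 111 FPKM and 73.6, 107, 103, 95.1 and 97.0 FPKM (log2 change -0.31 ± 0.10 SE, adjusted p = 0.0311 by limma). Its groups overlapped, and the call was lost without CD8+4T1 replicate 2, 3 or 4 or acetate replicate 4 (adjusted p 0.0573 to 0.0746), with no filter on low values (0.0559), and with the same total and T cell marker scaling, where the value was -0.13 and -0.12 (limma adjusted p = 0.255 and 0.298).

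Rps27l, a p53 target, had 221, 245, 271, 267 and 238 FPKM and 183, 199.7, 193, 166 and 190.2 FPKM, with no overlap (log2 change -0.41 ± 0.07 SE, adjusted p = 0.00118 by limma). Rps27 had 282, 271, 496, 539.7 and 381 FPKM and 196, 282, 256, 236 and 273 FPKM (log2 change -0.62 ± 0.20 SE, adjusted p = 0.0321 by limma). Its groups overlapped, and the call was lost without CD8+4T1 replicate 3, 4 or 5 or acetate replicate 1, 3 or 4 (adjusted p 0.0549 to 0.0748), with no filter on low values (0.0578), and with the same total and T cell marker scaling (-0.44 and -0.43, limma adjusted p = 0.0806 and 0.0695). Rpl7l1, a nucleolar factor in ribosome assembly, stayed between 28.1 and 30.6 FPKM in all 10 samples (log2 change -0.04 ± 0.04 SE, adjusted p = 0.534 by limma), and its value was 0.14 under the same-total scaling. Rpl36al was low, at 2.32 ± 0.348 FPKM in CD8+4T1 and 2.08 ± 0.703 FPKM in CD8+4T1+NaAc (log2 change -0.19, adjusted p = 0.5 by limma), with -0.35 without acetate replicate 1 and -0.06 without acetate replicate 4 as the lowest and highest values with 1 sample left out.

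Because a ratio of paralog to parent within a sample does not depend on scaling, 4 such ratios were compared by exact two-sided permutation tests over the 10 samples, with p adjusted over the 4. The log2 ratio of Rpl22l1 to Rpl22 was -0.95 ± 0.09 (SD) in CD8+4T1 and -1.22 ± 0.34 in CD8+4T1+NaAc, a difference of -0.26 (exact permutation p = 0.119, adjusted 0.169). For Rpl7l1 to Rpl7 it was -3.63 ± 0.12 and -3.95 ± 0.42, a difference of -0.32 (exact permutation p = 0.127, adjusted 0.169). In both, acetate replicate 1 was the only acetate sample above the CD8+4T1 samples, and the other acetate samples were below them all. Without acetate replicate 1 the differences were -0.41 and -0.51. Leaving out that sample, picked after its value was seen, separates the groups fully, so a test without it could not come out otherwise. Rps27l to Rps27 differed by 0.20 (exact permutation p = 0.294, adjusted 0.294), and Rpl36al to Rpl36a by 0.70 (exact permutation p = 0.0397, adjusted 0.159). For Rps27l to Rps27 the size of the difference depended on single samples. Acetate replicate 1 was at -0.10, above the other acetate samples (-0.52 to -0.41), and CD8+4T1 replicate 2, at -0.14, was the highest of its group.

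The remaining paralogs were near the limit of detection and were not tested. Rpl3l, known from heart and skeletal muscle, had 0.233 ± 0.161 FPKM in CD8+4T1 and 0.457 ± 0.169 FPKM in CD8+4T1+NaAc. Rpl39l, known from testis, had 0.219 ± 0.172 FPKM in CD8+4T1 and 0.235 ± 0.189 FPKM in CD8+4T1+NaAc, against 260.1 ± 70.7 FPKM in CD8+4T1 and 215 ± 39.9 FPKM in CD8+4T1+NaAc for its parent Rpl39, which did not pass the test (log2 change -0.25, adjusted p = 0.368 by limma, with -0.39 without CD8+4T1 replicate 1 and -0.12 without acetate replicate 1). Rpl10l, also known from testis, was listed at 0 in all 10 samples, while its parent Rpl10 fell from 717 ± 46.4 FPKM in CD8+4T1 to 577 ± 61.7 FPKM in CD8+4T1+NaAc (log2 change -0.32, adjusted p = 0.0121 by limma). Rpl10 lost the call with the same total and T cell marker scaling, at -0.14 and -0.13 (limma adjusted p = 0.156 and 0.197). Rps23rg1 had 1 fragment in 1 sample and 0 in the others.

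The remaining 31 of the 83 genes tested, of both subunits, did not pass the test. Among genes over 100 FPKM the highest fold changes were those of Rpl7, Rpl7a, Rpl13, Rpl4, Rps27a and Rpsa. Rpl7, a large subunit protein, had 349, 401, 388, 343 and 358 FPKM in CD8+4T1 and 264, 538, 474, 502 and 529 FPKM in CD8+4T1+NaAc. Acetate replicates 2 to 5 were above every CD8+4T1 sample and acetate replicate 1 was below them all, and the difference did not pass the test (log2 change 0.28 ± 0.18 SE, adjusted p = 0.236 by limma). Without acetate replicate 1 it was 0.48, and Rpl7 was called higher (limma adjusted p = 0.000206).

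Rpl4, near the tunnel through which the new peptide leaves, had 911, 1034, 999, 944 and 955 FPKM and 747, 1105, 1049, 1044 and 1127 FPKM. The pattern was the same, with acetate replicate 1 the lowest of all 10 and replicates 2 to 5 above every CD8+4T1 sample (log2 change 0.05 ± 0.11 SE, adjusted p = 0.732 by limma); without it the value was 0.16 (limma adjusted p = 0.0283). Rpl13 had 439 ± 19.9 FPKM in CD8+4T1 and 462 ± 67.2 FPKM in CD8+4T1+NaAc (log2 change 0.06, adjusted p = 0.659 by limma, and 0.15 without acetate replicate 1) and Rpl7a had 119 ± 34.9 FPKM in CD8+4T1 and 139.9 ± 29.5 FPKM in CD8+4T1+NaAc (log2 change 0.25, adjusted p = 0.359 by limma, and 0.39 without acetate replicate 1). Rpl3, near the catalytic centre, had 336, 359, 377, 342 and 367 FPKM and 188, 361, 344, 363 and 381 FPKM, and it too was lowest in acetate replicate 1 (log2 change -0.17, adjusted p = 0.493 by limma), without which its value turned to 0.02 (limma adjusted p = 0.717). Rpl17, in contrast, had 52.2, 389.9, 333, 418 and 408 FPKM with acetate against 424, 486, 506, 507 and 445 FPKM without. Every acetate sample was lower, yet the gene was not called (log2 change -0.87 ± 0.51 SE, adjusted p = 0.217 by limma), and without acetate replicate 1 it was (-0.29, limma adjusted p = 0.0141).

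Ribosomal protein genes have many processed pseudogenes with nearly the same sequence, and the counting could divide reads between them. The table listed 2262 of their pseudogenes, which held 1.38% ± 0.0922 of the fragments in listed genes in CD8+4T1 and 1.11% ± 0.0530 in CD8+4T1+NaAc. Pseudogenes held under 5% of the family's fragments for 48 of the 87 genes, and 33 of the 45 of these that were tested fell, with a median of -0.47. Where pseudogenes held at least 5%, 19 of 38 fell, with a median of -0.38, and where they held at least 50%, 2 of 10 fell, or 20%, beside 19.0% of all genes.

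Some genes were listed at a few FPKM while a pseudogene of theirs was listed among the most abundant. Rpl30 had 13.2 ± 3.44 FPKM in CD8+4T1 and 8.75 ± 3.70 FPKM in CD8+4T1+NaAc, and its pseudogene Gm12191 had 2472 ± 200.1 FPKM in CD8+4T1 and 1112 ± 327 FPKM in CD8+4T1+NaAc. Rps2 had 17.7 ± 2.47 FPKM in CD8+4T1 and 15.7 ± 1.59 FPKM in CD8+4T1+NaAc, and Rps2-ps10 had 1459.8 ± 115 FPKM in CD8+4T1 and 979 ± 323 FPKM in CD8+4T1+NaAc. Rpl26, Rpl29, Rps10 and Rpl21 also had over 90% of their fragments in pseudogenes (98.0%, 97.8%, 97.1% and 93.7%). The values of these genes by themselves are therefore uncertain.

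When the fragments of each gene and its pseudogenes were summed, over the gene's own length, before the fit, 57 of 83 were lower, 51 of them also lower by themselves, and 0 were higher, beside 19.0% of all genes lower and 18.0% higher in that fit. Rpl30 passed as a family (-1.15, limma adjusted p = 0.000177) and not by itself (log2 change -0.66, adjusted p = 0.102 by limma). So did Rps2 (-0.53 against -0.16), Rpl3 (-0.51 against -0.17), Rpl24 (-0.56 against 0.08), Rpl21 (-0.30 against 0.04) and Rpl17 (-0.53 against -0.87). Without acetate replicate 1 the values of Rpl24 and Rpl21 by themselves turned to -0.03 and -0.04. Rpl6 was lower by itself (-0.22) and was not called as a family (-0.17). By itself it also lost the call without CD8+4T1 replicate 2, 3, 4 or 5 or acetate replicate 3 or 4 (limma adjusted p 0.0504 to 0.0682). With the same total and T cell marker scaling its value by itself was -0.05 and -0.04 (limma adjusted p = 0.580 and 0.686). Across the 83 genes the fold changes of gene and family had a Pearson r of 0.90 and a Spearman rho of 0.91, which share the gene's own fragments.

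**Figure D4:**
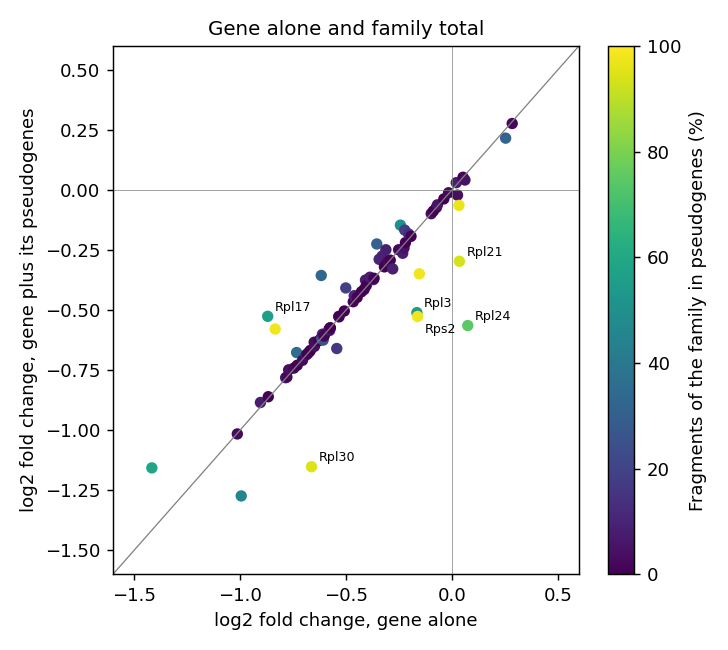
Log2 fold change of each of the 83 genes tested by itself (horizontal) and summed with its pseudogenes (vertical), coloured by the percentage of the family's fragments in pseudogenes. The line marks equal values, and Rpl30, at -0.66 and -1.15, is one of the genes far below it.

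Levels of the 77 core subunit genes were spread widely. The SD of log2 FPKM over the 77 genes was 2.21 in CD8+4T1 and 2.18 in CD8+4T1+NaAc as a mean over samples, and 1.21 in both once the FPKM of the pseudogenes was added to that of the gene. With the fragments of both summed over the gene's own length it was 1.38 and 1.40. The most abundant gene had 1898 ± 411 times the level of the least abundant in CD8+4T1 and 1348 ± 379 times in CD8+4T1+NaAc, and with the FPKM of the pseudogenes added these ratios were 113 ± 19.9 and 138 ± 40.7. Without acetate replicate 1 the ratio with pseudogenes added was 155 (140 to 174) with acetate, against 94.6 to 135 in CD8+4T1, with no overlap. The SD over the gene's own length was then 1.392 to 1.439 with acetate, against 1.371 to 1.391 in CD8+4T1. The mean SD of log2 FPKM was thus similar with and without acetate. With all samples kept, the ratios of most to least abundant gene overlapped, at 1449 to 2466 in CD8+4T1 and 834 to 1849 in CD8+4T1+NaAc. With pseudogenes added they ran from 94.6 to 135 and from 69.4 to 174. Without pseudogenes the least abundant gene was at only 1.41 to 2.37 FPKM, and the ratios were not tested.

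Fold changes correlated only weakly with the annotated length or the level of the gene, while the median fall was smallest for the longest genes. Genes with a length of 374 to 977 bases had 8 of 12 lower and a median of -0.46, those of 1022 to 1989 bases had 23 of 35 and -0.53, and those of 2007 to 6270 bases had 21 of 36 and -0.32. Over the 83 genes Pearson r with fold change was 0.07 for log2 length, -0.15 for log2 mean level and 0.05 for the pseudogene percentage, all as descriptions over genes that share the same 10 libraries.

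Abundant genes of other kinds were lower as well. Of 290 genes over 100 FPKM that were outside the name rule and not annotated as pseudogenes, 150 were lower (51.7%) and 19 higher, with a median of -0.22. Fau and Rack1 were among these 290. Of the 69 ribosomal protein genes over 100 FPKM, 46 were lower (66.7%) and 0 higher, with a median of -0.45. Whether the difference between these sets is particular to ribosomal proteins was not tested.

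Of 22 other genes with a TOP sequence or a role in translation, 9 were lower and 0 higher, with a median of -0.15, beside 19.0% of all genes lower and 17.6% higher. With the same total and with T cell marker scaling 6 and 6 were lower and 1 and 1 higher, where 8.80% and 7.50% of all genes were lower and 31.2% and 30.0% higher, and the median was 0.03 and 0.04. Among those that fell was Fau, outside the name rule, from 1423 ± 87.8 FPKM in CD8+4T1 to 809.7 ± 47.2 FPKM in CD8+4T1+NaAc (log2 change -0.81, adjusted p = 1.72e-05 by limma). Btf3, part of the nascent chain complex, fell (log2 change -0.89, adjusted p = 1.2e-05 by limma), as did the TOP host genes of small nucleolar RNAs Gas5 (-0.60) and Snhg1 (-0.56), and Hnrnpa1 (-0.50), Npm1 (-0.27), Eif3h (-0.24) and Eef2 (-0.18). The elongation factor Eef1a1 (log2 change -0.12, adjusted p = 0.399 by limma) and Rack1 (log2 change 0.04, adjusted p = 0.82 by limma) did not pass the test. Without acetate replicate 1, the lowest of all 10 samples for both, Eef1a1 was at -0.03 (limma adjusted p = 0.751) and Rack1 was called higher at 0.17 (limma adjusted p = 0.0238), and the median of the 22 genes was -0.08.

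Of 16 genes of the mTOR and LARP1 pathway and Myc, 5 were lower and 3 higher, beside 19.0% and 17.6% of all genes. These became 3 and 7 with the same total and 2 and 7 with T cell marker scaling. Under these scalings 8.80% and 7.50% of all genes were lower and 31.2% and 30.0% higher. Lower were Ddit4 (-0.71) and Sesn2 (-0.42), inhibitors of mTOR induced by stress, the translation repressors Eif4ebp1 (-0.55) and Eif4ebp2 (-0.26), and the S6 kinase Rps6kb1 (-0.21). Higher were Rptor (0.31), Tsc2 (0.28) and Deptor, an mTOR inhibitor that went from 0.0998 ± 0.0525 FPKM in CD8+4T1 to 1.09 ± 0.301 FPKM in CD8+4T1+NaAc. Mtor (log2 change 0.08, adjusted p = 0.326 by limma), Larp1 (log2 change 0.03, adjusted p = 0.791 by limma) and Myc (log2 change 0.16, adjusted p = 0.112 by limma) did not pass the test. Without acetate replicate 1 the number higher was 5, beside 3408 of all 15710 genes tested. Mtor at 0.13 (limma adjusted p = 0.0407) and Mlst8 at 0.31 (limma adjusted p = 0.0205) were added, and Larp1 turned to -0.04 (limma adjusted p = 0.493).

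Of 12 assembly factors and sensors of ribosomal proteins, 9 were lower (75%, beside 19.0% of all genes) and 0 higher, and with the same total or T cell marker scaling 3 were lower and 1 higher, beside the shares of all genes given above for these scalings. The 9 were Rpf2 (log2 change -0.60, adjusted p = 3.66e-05 by limma), which brings Rpl5, Rpl11 and 5S RNA to the pre-ribosome, the small subunit factors Ltv1 (-0.43), Tsr2 (-0.43), Nob1 (-0.20) and Pno1 (-0.17), the chaperone Bccip (-0.37), and Trp53 (-0.33), Mdm2 (-0.20) and the p53 target Cdkn1a (log2 change -0.61, adjusted p = 0.000147 by limma). Of 32 genes for ribosome biogenesis in the nucleolus, 12 were lower (37.5%) and 0 higher, with a median of -0.11, and with the same total and T cell marker scaling 6 and 5 were lower and 5 and 4 higher, beside the shares of all genes given above for these scalings. With acetate replicate 1 left out 14 were lower and 1 higher, beside 3557 lower and 3408 higher of all 15710 genes tested. The largest falls were those of Fbl, the methyltransferase of ribosomal RNA (log2 change -1.14, adjusted p = 0.000166 by limma), and of Gar1 (-0.95) and Nhp2 (-0.70), which guide pseudouridylation.

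Proteins of the mitochondrial ribosome, a separate machine encoded by Mrpl and Mrps genes, were lower in 38 of 77 tested and higher in 2 (Mrpl28 and Mrps2), with a median of -0.25, beside 19.0% of all genes lower and 17.6% higher. The number higher was 4 without acetate replicate 1, Mrpl28, Mrpl4, Mrps24 and Mrps30, and Mrps2 lost the call (limma adjusted p = 0.0596). In that fit 3408 of all 15710 genes tested were higher. The counts were 21 and 17 lower and 8 and 6 higher with the same total and T cell marker scaling, where 8.80% and 7.50% of all genes were lower and 31.2% and 30.0% higher. The largest fall was that of Mrps18c (log2 change -0.98, adjusted p = 0.000355 by limma).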

How the data were processed

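RNA sequencing of CD8+ T cells in 10 samples (5 per group) was used. Per the submitters' processing notes, reads were trimmed with fastp, aligned with HISAT2 2.0.5, assembled with StringTie 1.3.3b and counted with featureCounts 1.5.0-p3. Genome build, annotation and strand setting are not given in the sources used here. The authors deposited FPKM per gene with gene length, the other value used. FPKM times length gave whole fragments for 100% of values (tolerance 0.1), at a depth of 16306447 to 18853726 fragments per sample. Counting error is largest for genes with few fragments, such as Rpl36al with 31 to 73 per sample.

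Genes averaging 0.5 FPKM or more (15710 of 57825) were tested by limma 3.58.1 (R 4.3.3) on log2(FPKM + 0.1), with trend and robust moderation and Benjamini-Hochberg adjustment. FPKM are not counts, so the count test of the study's methods was not used; limma-voom on the recovered fragments was an alternative. Fold changes on this scale understate changes of low genes. Scripts were tested on simulated data. Named members are the 5 with the largest falls, the 8 with the highest mean FPKM, the stalk genes, the paralogs with their parents, and genes with roles of their own; the others were named after their values were seen, and some items are not reported here. Members and lists were chosen with earlier results of these data known. Pseudogenes were assigned to a gene by name or description. Alternatives were other pseudocounts, filters, scalings and weights, a replicate block, and each sample left out.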

Additional observations from a re-analysis of the deposited data

Results flagged for a closer look

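In 9 of 72 groups of 5 samples, taken over the named genes and the sample measures, the highest or lowest sample was set apart from its group by a gap above 0.71 of the group's range on log2 FPKM. Chance sets apart about 1 group in 20, or 3.6 of 72. CD8+4T1+NaAc replicate 1 was the lowest for Rpl3 (gap 0.858 of the range), Rpl7 (0.820), Rpsa (0.751) and Rpl36 (0.715), and it was the highest for Rpl27 (0.740). CD8+4T1 replicate 1 was the lowest for Rps27a (0.811), Rps3 (0.774), Rpl11 (0.727) and Rplp2 (0.711). Over all 83 genes tested, 27 of 166 groups were set apart, 20 of them by CD8+4T1+NaAc replicate 1 and 6 by CD8+4T1 replicate 1.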

How the results depend on the processing

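The 52 ribosomal protein genes lower with acetate became 46 to 54 when 1 sample was left out and 37 to 57 over all alternatives, and no named gene that was called lower turned to a rise. The number higher was 0, and it became 3 with samples set to the same total, 2 with T cell marker scaling (chosen after seeing the data), 1 with sample weights and 0 to 2 with 1 sample left out. The median of -0.43 became -0.25 with the same total and -0.24 with T cell marker scaling. Of the genes with under 5% of their family in pseudogenes, a split added after seeing the data, 33 were lower. Rpl7l1 reversed from -0.04 to 0.14 with the same total (limma adjusted p = 0.0174).

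With the same total and with T cell marker scaling, the lower calls became 3 and 2 of the TOP regulators, 21 and 17 of the mitochondrial ribosomal proteins, 6 and 5 of the biogenesis genes and 3 and 3 of the assembly factors; the higher calls became 1 and 1 of the TOP and translation genes, 7 and 7 of the TOP regulators, 8 and 6 of the mitochondrial genes, 5 and 4 of the biogenesis genes and 1 and 1 of the assembly factors. With sample weights the higher calls were 1, 5, 5 and 1 for TOP and translation genes, TOP regulators, mitochondrial and biogenesis genes. In that fit 3718 of all 15710 genes tested were higher. The TOP and translation genes had 1 higher with the replicate block, with protein-coding genes alone and with voom. All genes tested had 2551 of 15710, 2742 of 11642 and 3090 of 15710 higher in these fits. The mitochondrial genes had 1 higher with no filter or with no trend and robust moderation, and the TOP regulators had 1 with a minimum of 5 FPKM, a filter that tests 11 of the 16. In the same order, 2884 of 32272, 2783 of 15710 and 1257 of 7800 of all genes tested were higher. The higher calls without 1 sample were 0 to 1, 3 to 5, 1 to 4 and 0 to 1 for TOP and translation genes, TOP regulators, mitochondrial and biogenesis genes. Without replicate 1 of both groups they were 2, 5, 5 and 1. Of all 15710 genes tested, 2369 to 3408 were higher without 1 sample and 3427 without replicate 1 of both groups. The cause of the scaling differences was not tested.

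Deviations of same-numbered samples had r of -0.03 to 0.07, which gave no sign that the numbers pair them. The ribosomal protein share was nevertheless lowest in replicate 1 of both groups. The fit with a replicate block had 55 genes lower, 51 of them lower without the block. Replicates 1 and 4 of CD8+4T1 correlated best with the acetate sample of the same number. Depth limits Rpl3l, Rpl39l, Rpl10l and Rps23rg1, with at most 19 fragments in a sample, and pseudogenes limit the genes that share reads with them.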
